A study of Mus musculus with 6 samples.

Results

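Fatty acid oxidation, the breakdown of fatty acids in mitochondria and peroxisomes, was followed through 35 genes for its transporters and enzymes in adipose tissue RNA of mice. The members were the genes of the deposited expression table whose symbol is on a list of 35 names, and all 35 were found among its 19928 genes. By the main site of their products, 18 were grouped as mitochondrial, 12 as peroxisomal, 4 as present in both organelles and 1, Cpt1c, as a protein of the endoplasmic reticulum. The study compared adipose tissue of KM mice given radix Angelica sinensis (RAS), a medicinal root, at a dose of 10.00 g per kg, with adipose tissue of KM control mice, 3 samples in each group. The title of the series refers to high-fat feeding, while the labels call the diet of the control mice only control. No source used here gives the depot, sex, age or feeding state. The labels do not say whether a sample is 1 animal or a pool, so the tests measure only the spread between these 6 samples.

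Mitochondrial oxidation starts when a long-chain fatty acid is passed to carnitine by a CPT1 enzyme on the outer membrane, carried across the inner membrane, and returned to coenzyme A by CPT2. A repeated cycle of dehydrogenation, hydration, a second dehydrogenation and thiolysis then releases acetyl-CoA and passes electrons to the respiratory chain. Peroxisomes shorten very long-chain, branched and dicarboxylic acids by a parallel set of enzymes whose first step gives hydrogen peroxide. White fat mainly stores and releases fatty acids, whereas brown and beige fat burn them for heat.

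The libraries held 14.4 to 15.7 M reads assigned to genes, and 12462 to 12641 genes reached 1 FPKM (a level scaled for transcript length and sequencing depth). Adipoq, the adipocyte hormone adiponectin, stood at 2357 to 3460 FPKM in all 6. The summed FPKM of 7 adipocyte genes was 26596 to 33091.8 in the controls and 36644.5 to 53173.3 in the RAS samples. Fabp4 made up most of it, with means of 23034.3 and 37957.7 FPKM. Of the 7 genes, 5 had a higher mean with RAS (43% of all genes) and 2 a lower one. Among the lower was Lep, with means of 496 and 316 FPKM. Genes of several other cell types were not evenly spread either. The summed FPKM of 8 brown and beige fat genes was 340, 128 and 63.6 in controls 1 to 3 and 159, 225 and 996 in RAS samples 1 to 3. Ucp1, the heat-producing uncoupler among them, stood at 163 FPKM in RAS 3, at 33.8 in control 1 and at 0.0343 in control 3. The summed FPKM of 8 skeletal muscle genes was 69.9 to 210 in the controls, highest in control 1, and 23.2 to 61.2 in the RAS samples. Most of that sum was Acta1, skeletal muscle actin, at 180, 134 and 66.8 FPKM in controls 1 to 3 and at 21.2, 59.6 and 34.3 in RAS 1 to 3. The other muscle genes were high in control 1 alone, such as Ckm, muscle creatine kinase, at 3.08 FPKM there and 0.0594 to 0.465 in the other 5 libraries. The liver genes stood out in control 3 alone: the summed FPKM of 8 of them was 19.3, 8.50 and 178 in the controls and 7.13 to 10.8 in the RAS samples. Apoa2, a liver apolipoprotein, was at 36.5 FPKM in control 3 and 2.54 in control 1, and the remaining 4 libraries list it at 0. The summed FPKM of 4 mammary epithelium genes was 1.17, 10.4 and 12.2 in controls 1 to 3 and 4.91 to 11.2 in the RAS samples. For 5 macrophage genes the sums were closer between the groups, at 312 to 532 in the controls and 405 to 528 in the RAS samples. Of the brown and beige genes 7 were tested and all 7 had a higher mean with RAS, while the 4 tested muscle and 5 tested liver genes all had a lower one. In such bulk RNA, fewer cells of a type and less RNA per cell cannot be told apart.

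Hadha and Hadhb encode the alpha and beta subunits of the mitochondrial trifunctional protein and face away from each other on chromosome 5. Their intervening DNA is shown because it lies before the start of both genes. Between the GENCODE starts lie 85 bases, at chr5:30155163-30155247 (RefSeq GRCm38.p6, plus strand), and GC boxes (GGGCGG, searched on both strands) are in capitals:
Hadha to Hadhb: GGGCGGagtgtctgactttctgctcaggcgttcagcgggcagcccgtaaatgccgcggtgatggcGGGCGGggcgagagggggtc
The stretch is 69.4% G and C, holds 2 GC boxes and holds no nuclear receptor half-site (AGGTCA or its reverse complement). In the RefSeq windows of 250 bases before each start, 28 members had 30 windows. A GC box was found in 19 of the 30 (63.3%), against 32.7% of 32851 windows of all genes. Hadha and Hadhb were both among the 19, so the DNA between them can be counted for each.

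The half-site AGGTCA is the core of elements read by PPAR and ERR receptors, the best known regulators of these genes, and is shown where it occurred. It was found on either strand in 6 of the 30 member windows (20%), against 14% of all windows. The longer elements AGGTCANAGGTCA, AGGNCANAGGNCA and TCAAGGTCA, which contain or resemble the half-site, were in none of the 30 windows and in 0.0335%, 0.338% and 0.387% of all windows. A match describes letters, not a bound site. Each 30-base stretch reads 5′ to 3′ on the gene's own strand (RefSeq GRCm38.p6), with the half-site or its reverse complement in capitals:
Acadm, chr3:153944864-153944893, minus strand: gTGACCTtcgggctccggtgacactgggca
Acadvl, chr11:70015498-70015527, minus strand: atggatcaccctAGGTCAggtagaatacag
Echs1, chr7:140116487-140116516, minus strand: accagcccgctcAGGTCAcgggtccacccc
Cpt1a, chr19:3323195-3323224, plus strand: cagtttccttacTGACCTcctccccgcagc
Scp2, chr4:108118639-108118668, minus strand: gtctaacacagtAGGTCAaaagaacccata
Cpt1c, chr7:44974980-44975009, minus strand: gggcagggagggAGGTCAaggctgtttctt
Acadm and Acadvl act on medium and very long chains, Echs1 hydrates short chains, Cpt1a opens the mitochondrial route and Scp2 is the peroxisomal thiolase and lipid carrier.

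Between the groups, no member passed the test. Of the 34 members tested (mean FPKM of at least 1), 31 had a higher mean log2 level with RAS and 3 a lower one (Cpt1a, Abcd2 and Cpt1c), where 43% of all 12606 genes tested had a higher mean. The smallest adjusted p of any member was 0.505 (limma), and 0 members were under 0.05, as were 0% of all genes. At an unadjusted p under 0.05 there were also 0 members, against 10.3% of all genes. The 17 higher of 18 mitochondrial members had, with the remaining one, a median log2 difference of 0.31 (range -0.03 to 1.08). The 11 tested peroxisomal members, 10 of them higher, had a median of 0.24 (range -0.18 to 0.61), and the 4 members of both organelles had 0.21. The median over all genes tested was -0.04. Mitochondrial and peroxisomal medians were not tested against each other.

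**Figure D1:**
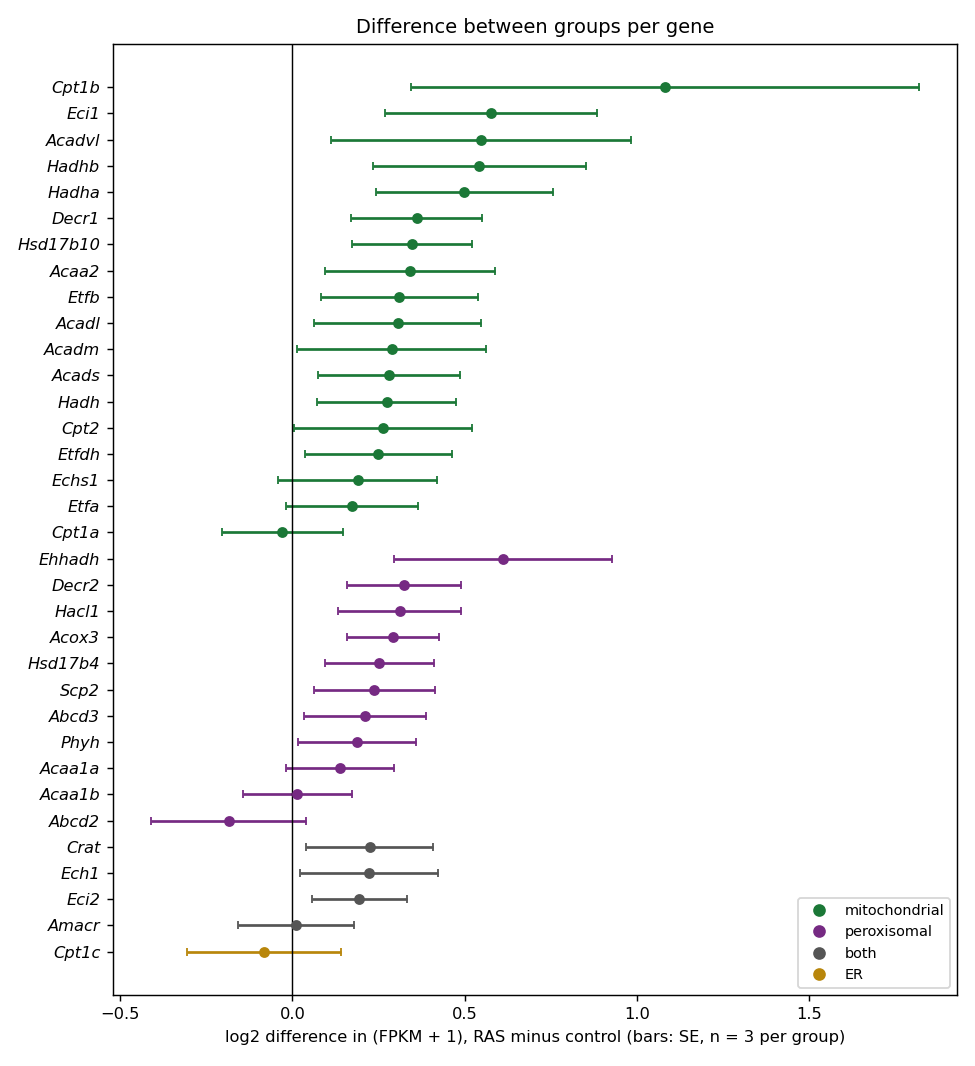
Difference in mean log2(FPKM + 1), RAS minus control, for each of the 34 tested members, ordered within compartments. Points are differences and bars are standard errors; 31 points lie above 0, and none passed limma's adjusted threshold.

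Control 1 and RAS 3 stood apart from the other libraries of their groups. In 17 of the 18 mitochondrial members control 1 was the highest control, and in 17 it lay above RAS 1 and RAS 2. RAS 3 was the highest of the RAS samples in 16 of the 18 and the highest of all 6 in 14. Over all 34 members, control 1 was the highest control in 30 (47.7% of all genes). It was above RAS 1 and RAS 2 in 27 (51.7% of all genes) and RAS 3 was highest of all in 21 (23.8% of all genes). Among 19 other mitochondrial and 20 other peroxisomal genes described below, control 1 was the highest control in 16 and 15. The ranges of the groups were apart in 0 members, against 5.42% of all genes apart upwards and 12.5% apart downwards. Control 1 and RAS 3 were also the libraries with the highest summed brown and beige fat genes, and control 1 the one with the highest muscle sum. The part of these cells in the members' levels was not tested.

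Without control 1, the remaining 2 controls lay below all 3 RAS samples in 26 of 34 members, against 13.3% of all genes. By compartment that held for 17 of 18 mitochondrial, 6 of 11 peroxisomal and 3 of 4 shared members. On other lists described below, it held for 10 of 19 other mitochondrial genes and 9 of 20 other peroxisomal genes. Among 14 peroxins, which build and divide peroxisomes, it held for 9. It also held for 6 of 14 genes of carnitine entry and its control and for 5 of 7 brown and beige genes. At an unadjusted p under 0.05, 16 members were then higher and 0 lower (5.32% of all genes higher), still with 0 at an adjusted p under 0.05 (0.0159% of all genes) and a smallest adjusted p of 0.265 (limma). Without both control 1 and RAS 3, the ranges were apart upwards in 28 members (20.3% of all genes), and 16 members had an unadjusted p under 0.05 (6.41% of all genes higher). The smallest adjusted p was then 0.177. Control 1 was left out after its values in these data were known from earlier work, so these counts describe that library and are no test.

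**Figure D2:**
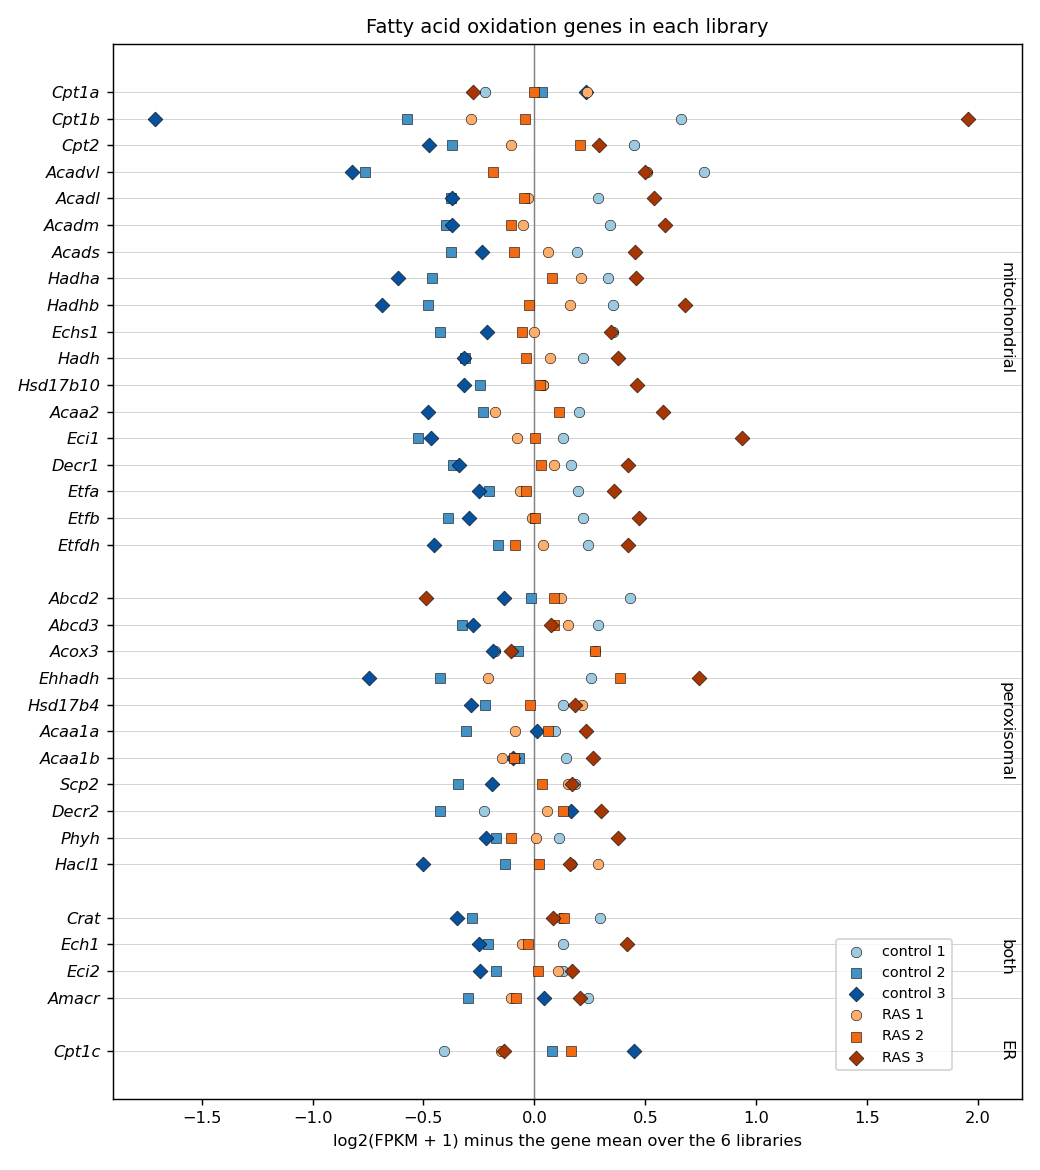
Level of each of the 34 tested members in every library, as log2(FPKM + 1) minus the gene's mean over the 6 libraries, by compartment; colours and markers tell the libraries apart. In 17 of 18 mitochondrial members control 1 lies above RAS 1 and RAS 2.

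Of the enzymes that admit fatty acids to mitochondria, Cpt1a, the liver-type CPT1 (chromosome 19, 3323300 to 3385733 in the table), stood at 18.7, 22.5 and 25.9 FPKM in controls 1 to 3. It stood at 26.0, 21.9 and 17.9 FPKM in RAS samples 1 to 3. The groups overlapped almost fully, with means of 22.4 ± 3.62 and 21.9 ± 4.06 FPKM (SD, n = 3 each) and a log2 difference of -0.03 ± 0.17 (SE, adjusted p = 0.968, limma). Control 1 was the lowest control and RAS 3 the lowest RAS sample. Cpt1b, the muscle and brown fat type (chromosome 15, 89416404 to 89429927), stood at 8.67, 3.11 and 0.873 FPKM in the controls and at 4.01, 4.94 and 22.7 FPKM in the RAS samples. RAS 3 stood above every other library and control 3 below, and the groups overlapped. Its log2 difference of 1.08 ± 0.74 was the largest of all members, as was its standard error (adjusted p = 0.653, limma). It was 0.38 without RAS 3 and 1.68 without control 1. Control 1 and RAS 3 had the highest values of Cpt1b as they had of Ucp1, and the part of brown or muscle cells in this was not tested.

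Cpt1b made up 29.7%, 10.9% and 2.82% of the FPKM of the 3 CPT1 genes in controls 1 to 3 and 12.4%, 16.4% and 52.7% in RAS 1 to 3. The means were 14.4% ± 13.8 and 27.2% ± 22.2 (SD, n = 3), a difference of 12.7 points that the exact permutation test did not separate from 0 (two-sided p = 0.5, the smallest possible being 0.1). The difference depended on RAS 3 and control 1, the highest library of each group. Without RAS 3 it was -0.072 points, with control 1 at 29.7% still in the control mean. RAS 1 and RAS 2 (12.4% and 16.4%) both lay above controls 2 and 3 (10.9% and 2.82%). Without both control 1 and RAS 3 the difference was therefore positive. The coding sequences of Cpt1a and Cpt1b were 66.1% identical with a longest identical run of 20 bases. Cpt1c, a brain-type homologue of the endoplasmic reticulum, stood at 1.88, 3.03 and 4.22 FPKM in the controls and at 2.44, 3.28 and 2.47 in the RAS samples, with overlapping groups. Its log2 difference was -0.08 ± 0.22 (adjusted p = 0.920, limma). Cpt2, the inner membrane partner of CPT1, stood at 94.2, 52.9 and 49.2 FPKM in the controls and at 63.9, 79.4 and 84.3 FPKM in the RAS samples. Control 1 was highest of all, and the log2 difference was 0.26 ± 0.26 (adjusted p = 0.748, limma).

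**Figure D3:**
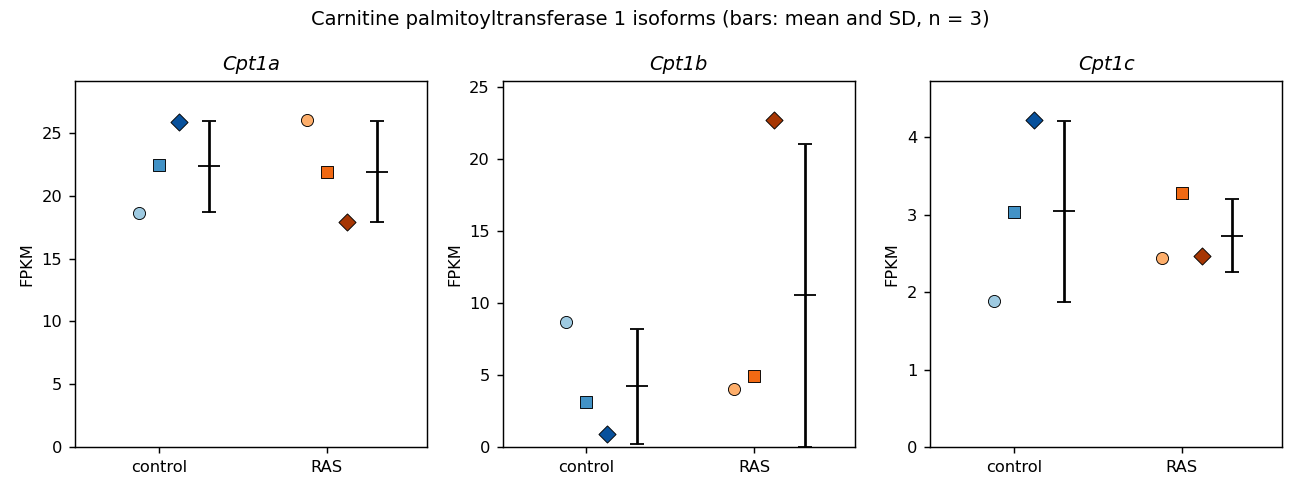
FPKM of Cpt1a, Cpt1b and Cpt1c in each of the 6 libraries, with the mean and SD of each group (n = 3) beside the points. Cpt1b was highest in RAS 3 at 22.7 FPKM and lowest in control 3 at 0.873, while Cpt1a ranged only from 17.9 to 26.0.

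The acyl-CoA dehydrogenases, which take the first electrons from chains of falling length, shared one pattern over the libraries. Acadvl, for very long chains, stood at 135, 46.4 and 44.4 FPKM in the controls and at 113, 69.7 and 113 in the RAS samples, so control 1 alone was above all RAS samples. Acadl, for long chains, stood at 92.6, 58.2 and 58.2 FPKM against 74.1, 73.2 and 110. Acadm, for medium chains, stood at 226, 135 and 137 FPKM against 171, 166 and 268, and Acads, for short chains, at 94.7, 63.4 and 70.0 against 86.2, 77.6 and 113. In all 4 genes control 1 lay within or above the RAS range and controls 2 and 3 lay below it. Their log2 differences ran from 0.28 to 0.55 with adjusted p-values of 0.671 to 0.739 (limma), and that of Acadvl was 0.27 without control 3 and 1.07 without control 1. Part of the reads at the Acadl locus may belong to the gene model LOC100862127, which the table lists on the same locus at 21.7 to 57.4 FPKM.

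Hadha stood at 97.4, 55.8 and 50.1 FPKM in controls 1 to 3 and at 89.5, 81.8 and 107 in RAS 1 to 3. Its means were 67.8 ± 25.8 and 92.6 ± 12.7 FPKM (SD, n = 3), a log2 difference of 0.50 ± 0.26 (adjusted p = 0.556, limma). Hadhb stood at 266, 149 and 129 FPKM against 232, 204 and 333, a log2 difference of 0.54 ± 0.31 (adjusted p = 0.591, limma). With 1 library left out, the difference ran from 0.32 (without control 3) to 0.79 (without control 1) for Hadha and from 0.33 to 0.85 for Hadhb, without the same libraries. The 2 subunits had the same 4 libraries above 80 FPKM for Hadha and above 200 FPKM for Hadhb, with controls 2 and 3 below them. Hadha per unit of Hadhb was 0.366, 0.375 and 0.389 in the controls and 0.385, 0.400 and 0.320 in the RAS samples.

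Of the remaining enzymes of the cycle, Hsd17b10, a short-chain hydroxyacyl-CoA dehydrogenase also needed for mitochondrial tRNA processing, had the smallest mitochondrial p. It stood at 102, 84.1 and 79.7 FPKM in the controls and at 102, 101 and 138 in the RAS samples, a log2 difference of 0.35 ± 0.18 (adjusted p = 0.548, limma) and 0.20 without RAS 3. Control 1 reached the level of RAS 1 and RAS 2, so the groups met. Echs1, the short-chain hydratase, stood at 214, 124 and 144 FPKM against 167, 161 and 213, Hadh at 205, 142 and 141 against 185, 171 and 229, and the thiolase Acaa2 at 95.1, 70.2 and 58.9 against 72.9, 89.2 and 124. In these 3 genes control 1 lay within or above the RAS range, and log2 differences were 0.19 to 0.34.

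Double bonds are handled by Eci1, an enoyl-CoA isomerase, and by Decr1, the mitochondrial 2,4-dienoyl-CoA reductase. Eci1 stood at 94.6, 60.0 and 62.3 FPKM in the controls and at 82.1, 86.8 and 167 in the RAS samples, where RAS 3 was highest of all 6. Its log2 difference was 0.58 ± 0.31 (adjusted p = 0.569, limma) and 0.25 without RAS 3. Decr1 stood at 82.2, 56.6 and 57.7 FPKM against 78.0, 74.8 and 98.6, a log2 difference of 0.36 ± 0.19 (adjusted p = 0.564, limma) and 0.24 without RAS 3. For both, control 1 overlapped the RAS range.

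The electron transfer flavoprotein, which takes electrons from the acyl-CoA dehydrogenases, is made of Etfa and Etfb and hands them on through Etfdh. Etfa stood at 236, 179 and 173 FPKM in the controls against 197, 201 and 265, Etfb at 396, 259 and 277 against 337, 341 and 472, and Etfdh at 56.9, 42.8 and 34.8 against 49.4, 45.1 and 64.6. Control 1 lay above RAS 1 and RAS 2 for all 3 genes, and their log2 differences ran from 0.17 to 0.31.

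**Figure D4:**
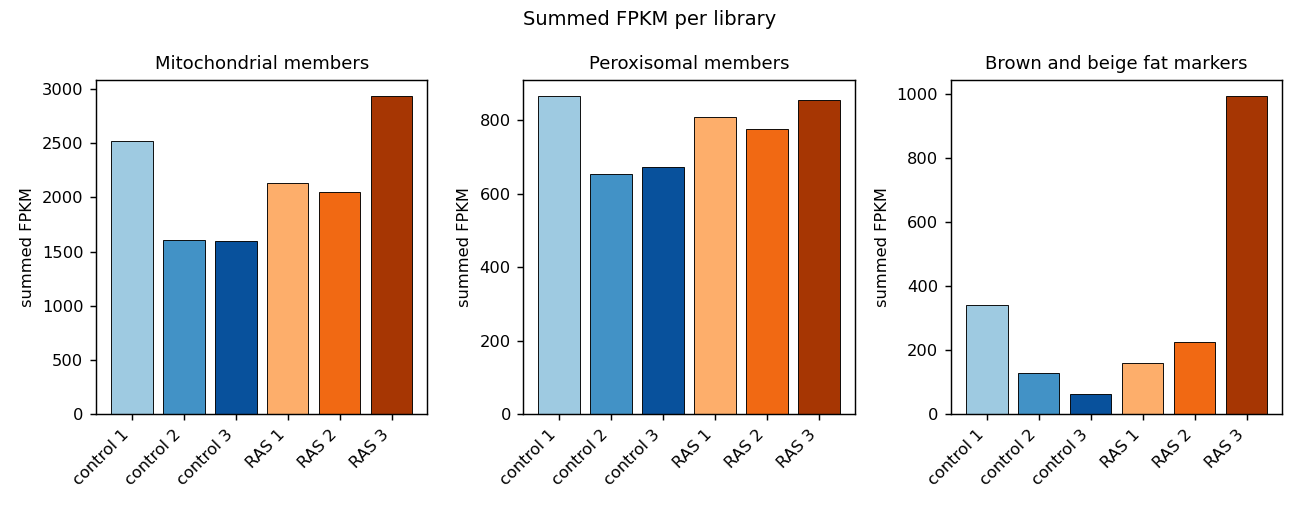
Summed FPKM of the mitochondrial members, the peroxisomal members and the brown and beige fat markers in each library, as bars from 0. Mitochondrial sums were 1593 to 2516 in controls and 2050 to 2939 in RAS samples; the brown and beige sum was highest in RAS 3 at 996.

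Summed over the 18 mitochondrial members, the level was 2516, 1604 and 1593 FPKM in the controls and 2132, 2050 and 2939 in the RAS samples (1904 ± 530 and 2374 ± 492, SD, n = 3). As a share of all FPKM in each library, it was 0.350% to 0.523% in the controls and 0.450% to 0.539% in the RAS samples. The peroxisomal sum was 867, 654 and 672 FPKM in the controls and 810, 778 and 855 in the RAS samples (731 ± 118 and 814 ± 38.6). As a share of all FPKM, it was 0.180%, 0.159% and 0.148% in the controls and 0.171%, 0.173% and 0.157% in the RAS samples, with means of 0.162% and 0.167%, and RAS 3 lay below control 2.

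The peroxisomal members split into transporters, oxidases, the later steps and the alpha-oxidation pair. Abcd2, which carries very long-chain acids into peroxisomes and is most abundant in fat, stood at 121, 88.9 and 81.6 FPKM in the controls and at 97.9, 95.6 and 63.8 in the RAS samples. Control 1 was the highest library and RAS 3 the lowest, and the groups overlapped. The log2 difference was -0.18 ± 0.22 (adjusted p = 0.798, limma). Abcd3, its branched-chain and dicarboxylic relative, stood at 37.1, 23.9 and 24.8 FPKM against 33.7, 32.2 and 31.9, with control 1 above all RAS samples.

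Acox3, an oxidase for branched chains that gives hydrogen peroxide, had the smallest p of all members. It stood at 13.7, 14.8 and 13.6 FPKM in the controls and at 19.1, 19.1 and 14.4 in the RAS samples. RAS 3 fell inside the control range while RAS 1 and RAS 2 lay above it, and the means were 14.0 ± 0.640 and 17.5 ± 2.68 FPKM (SD, n = 3). The log2 difference was 0.29 ± 0.13 (adjusted p = 0.505, limma). RAS 3, the library with the highest brown and beige sum, had the lowest Acox3 of the RAS samples. The part of brown or beige cells in the level of Acox3 was not tested. Acox2, the oxidase of bile acid intermediates in liver, stood at 0.251, 0.131 and 0.0483 FPKM in the controls and at 0.0253, 0 and 0.0763 in the RAS samples, from 0 to 11 reads, and was not tested.

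Ehhadh, the bifunctional hydratase and dehydrogenase of dicarboxylic acids, stood at 21.2, 12.8 and 10.1 FPKM in the controls and at 15.1, 23.3 and 30.1 in the RAS samples. Control 1 overlapped the RAS range, and means were 14.7 ± 5.79 and 22.8 ± 7.51 FPKM (SD, n = 3), a log2 difference of 0.61 ± 0.32 (adjusted p = 0.556, limma) that was 0.39 without control 3 or without RAS 3. Hsd17b4, its counterpart for very long and branched chains, stood at 109, 85.5 and 81.7 FPKM against 116, 98.3 and 114. That was a log2 difference of 0.25 ± 0.16 (adjusted p = 0.622, limma), with control 1 inside the RAS range. Decr2, the peroxisomal dienoyl reductase, stood at 9.44, 8.12 and 12.7 FPKM against 11.7, 12.4 and 14.1, a log2 difference of 0.33 ± 0.17 (adjusted p = 0.552, limma). Here control 3, not control 1, overlapped, and the difference was 0.49 without it and 0.19 without control 2.

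The peroxisomal thiolases Acaa1a and Acaa1b are close copies on chromosome 9, at 119341293 to 119350295 and 119148042 to 119157093 in the table. Their coding sequences were 96.5% identical over 1275 bases, with an identical run of 327 bases, so reads can be split between them. The stretch where they differ most is shown because it is where reads tell them apart: GENCODE M21 coding bases 259 to 318, counted from the A of the start codon, with the 11 differing bases in capitals:
Acaa1a: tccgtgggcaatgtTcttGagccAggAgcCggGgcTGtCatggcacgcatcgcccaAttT
Acaa1b: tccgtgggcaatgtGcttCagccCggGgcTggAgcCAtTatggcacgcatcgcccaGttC
Acaa1a stood at 73.5, 55.3 and 69.3 FPKM in the controls and at 64.7, 71.9 and 80.9 in the RAS samples. Acaa1b stood at 110, 95.1 and 93.3 FPKM against 90.0, 93.5 and 120, a log2 difference of 0.01 ± 0.16 (adjusted p = 0.982, limma). The groups overlapped for both genes. Acaa1b held 60.2% ± 2.94 of the pair's FPKM in the controls and 58.1% ± 1.59 in the RAS samples (SD, n = 3), a difference the exact permutation test did not separate from 0 (two-sided p = 0.4).

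Scp2, a thiolase for branched chains whose transcript also codes for a lipid carrier, stood at 271, 188 and 209 FPKM in the controls and at 266, 245 and 269 in the RAS samples, with control 1 highest of all. The alpha-oxidation enzymes remove a single carbon from phytanic acid. Phyh, the hydroxylase, stood at 84.7, 69.5 and 67.2 FPKM against 78.8, 72.9 and 102, and shared its locus with LOC100861976 (49.5 to 103 FPKM). Hacl1, the lyase, stood at 15.1, 12.1 and 9.18 FPKM against 16.6, 13.6 and 15.1, a log2 difference of 0.31 ± 0.18 (adjusted p = 0.592, limma), 0.14 without control 3 and 0.47 without control 1. Control 1 lay within or above the RAS range in all 3.

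The 4 members found in both organelles overlapped between groups as well. Crat, which trades acetyl groups between carnitine and coenzyme A, stood at 74.0, 49.3 and 47.1 FPKM in the controls and at 65.5, 66.1 and 63.8 in the RAS samples (log2 difference 0.22 ± 0.19, adjusted p = 0.708, limma). Ech1, a dienoyl isomerase, stood at 414, 327 and 318 FPKM against 364, 372 and 506 (0.22 ± 0.20, adjusted p = 0.729, limma). Eci2, an enoyl isomerase, stood at 58.7, 47.5 and 45.1 FPKM against 57.8, 54.2 and 60.5 (0.19 ± 0.14, adjusted p = 0.662, limma). Control 1 was above RAS 1 and RAS 2 in each of these 3. Amacr, the racemase that prepares branched acids, stood at 4.92, 3.08 and 4.16 FPKM against 3.65, 3.73 and 4.79, a log2 difference of 0.01 ± 0.17 (adjusted p = 0.987, limma).

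Around the members, genes of carnitine entry and its control were read from a list of 15, 14 of them tested. Of these 11 were higher (43% of all genes) and 3 lower. At an unadjusted p under 0.05, 3 were higher and 1 lower (3.86% and 6.41% of all genes). At an adjusted p under 0.05 there were 0. Slc25a20, the carnitine carrier of the inner membrane, stood at 35.7, 26.4 and 25.1 FPKM in the controls and at 39.7, 45.2 and 66.0 in the RAS samples, so its groups did not overlap (log2 difference 0.75 ± 0.22, adjusted p = 0.350, limma). Acacb, which makes the malonyl-CoA that blocks CPT1, stood at 35.6, 16.6 and 12.5 FPKM against 40.1, 52.9 and 50.0 (1.24 ± 0.35, adjusted p = 0.338, limma). Ppara, a receptor that turns on oxidation genes, stood at 2.28, 2.09 and 1.11 FPKM against 2.80, 4.06 and 4.03 (0.73 ± 0.21, adjusted p = 0.347, limma). Nrip1, a corepressor of such genes, stood at 28.7, 21.3 and 23.5 FPKM against 13.2, 13.1 and 6.73 (-1.13 ± 0.25, adjusted p = 0.274, limma). These 4 were the genes of that list whose groups did not overlap, 3 higher (5.42% of all genes) and 1 lower (12.5% of all genes). Ppard, a sister receptor of Ppara, and Crot, the peroxisomal carnitine octanoyltransferase, had log2 differences of -0.10 and -0.06, and Ppargc1a, a coactivator of mitochondrial genes at 0.235 to 1.06 FPKM, was under the minimum for testing.

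Other mitochondrial fatty acid and ketone genes, 19 tested of 20, gave 10 higher (43% of all genes) and 9 lower. At an unadjusted p under 0.05, 3 were higher and 0 lower, against 3.86% and 6.41% of all genes. Acad11, a dehydrogenase of very long chains, stood at 60.8, 66.0 and 58.0 FPKM in the controls and at 94.8, 108 and 110 in the RAS samples, with no overlap (0.75 ± 0.13, adjusted p = 0.232, limma). It shared its locus with Ccrl1, so reads there may be mixed. On this list the groups were apart upwards in 3 genes and downwards in 0 (5.42% and 12.5% of all genes). The thioesterases Acot2 and Acot13 had log2 differences of 0.49 and 0.39 (adjusted p = 0.390 and 0.435, limma). Oxct1, which starts ketone use, had -0.56 (adjusted p = 0.493, limma; -0.32 without RAS 3), and Acot9 had -0.10. Other peroxisomal genes, 20 tested of 21, gave 14 higher (43% of all genes) and 6 lower. At an unadjusted p under 0.05 there was 1 in each direction (3.86% of all genes higher and 6.41% lower). Acot4, a thioesterase of peroxisomes, was higher (1.29 ± 0.15, adjusted p = 0.138, limma), and Far1, which makes fatty alcohols for ether lipids, lower (-0.47 ± 0.12, adjusted p = 0.309, limma). Ephx2 and Pxmp4 had log2 differences of 0.43 and 0.33, and Pxmp2 and Agps -0.27 and -0.16. Of these 20 peroxisomal genes, the groups were apart upwards in 4 and downwards in 1 (5.42% and 12.5% of all genes).

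Of 16 peroxins listed, which build and divide peroxisomes, 14 were in the table and tested: 10 were higher (43% of all genes) and 4 lower. At an unadjusted p under 0.05, 4 were higher and 0 lower, against 3.86% and 6.41% of all genes. Pex16, which places membrane proteins, stood at 66.6, 44.4 and 56.2 FPKM in the controls and at 87.5, 73.6 and 79.2 in the RAS samples (0.53 ± 0.17, adjusted p = 0.390, limma). Pex3, its docking partner, stood at 22.4, 19.6 and 17.2 FPKM against 31.8, 27.7 and 23.6 (0.47 ± 0.15, adjusted p = 0.390, limma), and neither overlapped. Of the 14 peroxins tested, the groups were apart upwards in 4 and downwards in 0 (5.42% and 12.5% of all genes). Pex10 had 0.29, Pex26 -0.15, Pex7 -0.06 and Pex11a, which promotes peroxisome division, -0.01. Of the 9 listed PPAR alpha targets 5 were tested, 4 higher (43% of all genes) and 1 lower. At an unadjusted p under 0.05, 2 of them were higher (3.86% of all genes). Vnn1, a pantetheinase, stood at 1.56, 2.85 and 3.35 FPKM against 4.40, 8.60 and 28.0 (1.71 ± 0.56, adjusted p = 0.393, limma; 1.04 without RAS 3). Acot1, a thioesterase, stood at 0.938, 0.714 and 1.00 FPKM against 1.18, 2.88 and 8.73 (1.21 ± 0.48, adjusted p = 0.463, limma; 0.63 without RAS 3). Pdk4, which spares glucose, stood at 56.8, 47.0 and 36.5 FPKM against 42.9, 55.1 and 140, with RAS 3 highest and the other libraries overlapping (0.58 ± 0.42, adjusted p = 0.665, limma; 0.076 without RAS 3). Angptl4 had -0.13.

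**Figure D5:**
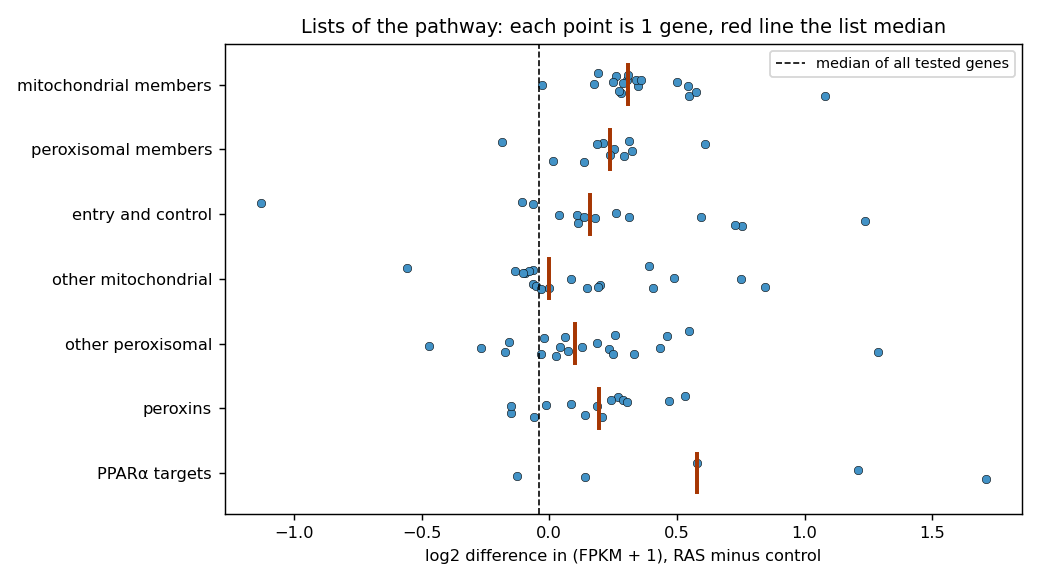
Log2 differences, RAS minus control, of the genes tested in each list, one point per gene with the list's median marked. The median was 0.31 for mitochondrial members, 0.24 for peroxisomal members, 0.16 for entry and control and 0.20 for peroxins. It was 0.0009 for other mitochondrial genes, 0.10 for other peroxisomal genes and 0.58 for PPAR alpha targets, against -0.04 over all genes tested.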

How the data were processed

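Adipose RNA libraries (TruSeq, poly(A)-selected, Illumina HiSeq, per the labels' protocols) were deposited as 1 table. The FPKM values deposited by the authors were used unchanged. The submitters' processing notes list TopHat2 2.0.9 and Cufflinks 2.1.1, and the build is not given in the sources used here. Table loci overlapped the GENCODE M21 gene (GRCm38) for 99.67% of 18403 matched identifiers. The deposited count signal is scaled, so it was used only for depth, 1 alternative and the approximate reads of Acox2. Of its values above 0, 98.02% to 98.94% were whole multiples, within 0.02, of 1 step per library. Columns carrying the RAS group's name in the treatment protocol were taken as RAS, and the other numbered set as controls by elimination; 4 further columns, of values per group, were left out.

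The 12606 genes whose mean FPKM reached 1 were tested with limma 3.58.1 in R 4.3.3 on log2(FPKM + 1), trended empirical Bayes, two-sided, with Benjamini-Hochberg adjustment at 0.05; this scale understates changes of low genes. Shares were tested with exact permutation over samples (Python 3.11.15, pandas 2.3.3, numpy 2.4.6, matplotlib 3.10.9). In 5 simulated runs with 200 changed genes among 12606, the test called 63.8% of those changed by 1 on the log2 scale and 92.8% of those changed by 2, with 8.4 false calls per run. The simulated noise was independent between genes, without shifts of a whole library, and no change was smaller than 1. Recovery of differences the size of the members' medians was therefore not measured. Members, lists and alternatives were chosen with earlier results of these data known. Statistics are given for, per compartment, the 4 members with the smallest p in each direction and 7 listed members; other lists name up to 3 genes in each direction by p, plus 6 listed genes; some genes that this rule names are not reported here. Of 157 listed genes, 154 were in the table. In it, 7 members (Acadl, Phyh, Acadvl, Cpt1b, Crat, Acox3 and Hadha) shared a locus with another gene model, and no strand-specific step is named, so reads there may be mixed. Promoters came from RefSeq GRCm38.p6, where 7 members had no window, and coding sequences from GENCODE M21. Replicate numbers were not taken as pairs: same-numbered deviations correlated at 0.178, 0.096 and 0.219, not all over 0.1.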

Additional observations from a re-analysis of the deposited data

How the results depend on the processing

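The count of members at an adjusted p under 0.05 was 0 in all 16 alternatives, and 29 to 32 members were higher. At an unadjusted p under 0.05 there were 0 members as reported, against 10.3% of all genes. There were 1 with quantile normalization, 2 with median-ratio size factors, 9 with sample weights and 1 with scaled counts. In each of these settings more of all genes passed than as reported, and most with sample weights. A count of 1 or 2 among 34 members is a smaller share than 10.3%. Without control 1 and RAS 3 there were 16 members, all higher, against 6.41% of all genes higher. Leaving out 1 library gave 0 to 16 members. The 16 were without control 1, all higher, against 5.32% of all genes higher. With the replicate block (pairing by number) there were 2, 1663 genes at an unadjusted p under 0.05 against 1294, and 0 genes adjusted; each of the 6 libraries correlated best with its own number. Genes at an adjusted p under 0.05 were 3 without control 1 and RAS 3 and 0 to 2 leaving out 1 library. The mitochondrial median ran from 0.15 (without RAS 3) to 0.53 (without control 1) and the peroxisomal from 0.15 to 0.29 over libraries left out. The Cpt1b share difference ran from -0.072 (without RAS 3) to 20.3 points (without control 1) and was positive without both. Log2 differences that turned, in the order quantile, median-ratio, weights and without control 1 and RAS 3: Cpt1a 0.0021 and 0.013 (first 2); Acaa1b -0.061, -0.026 and -0.038 (quantile, weights, without both) and -0.079 with scaled counts; Pex11a 0.0018, 0.031, 0.19 and 0.32; and, with weights and without both, Abcd2 0.049 and 0.18, Crot 0.055 and 0.12, Ppard 0.0041 and 0.079; with weights, Amacr -0.011. Leaving out 1 library, Abcd2 ran from -0.30 to 0.013, Acaa1b -0.11 to 0.091, Acot9 -0.18 to 0.018, Amacr -0.14 to 0.13, Cpt1a -0.15 to 0.10, Cpt1c -0.31 to 0.12, Crot -0.14 to 0.044, Pex11a -0.16 to 0.24 and Pex7 -0.16 to 0.025. The Hadha to Hadhb ratio difference, added after seeing the data, ran from -0.0241 to 0.0158 and was 0.0106 without both. Causes were not tested. A planned test on recovered read counts was not run because the scaled signal did not pass the whole-read check. With 3 samples a group, an exact permutation p cannot be under 0.1.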

Other observations

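The ratio of Etfa to Etfb, the subunits of the electron transfer flavoprotein, was looked at after its values were seen. It was 0.596, 0.691 and 0.626 in controls 1 to 3 and 0.585, 0.590 and 0.562 in RAS samples 1 to 3, so the RAS samples were all below the controls. The exact permutation test gave a two-sided p of 0.1, the smallest that 3 samples against 3 allow, and 0.5 after Benjamini-Hochberg adjustment over the 5 ratios and shares computed. The difference of -0.0588 ran from -0.0795 to -0.0321 with 1 library left out, and its cause was not tested.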
